A study of Mus musculus with 15 samples.

Results

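The p53 target genes described here are 10 genes whose transcription is raised by p53 in mouse cells: Cdkn1a, Mdm2, Ccng1, Sesn2, Eda2r, Phlda3, Bbc3, Pmaip1, Zmat3 and Trp53inp1. They were chosen by name, as the rows of the expression matrix that carry these symbols, and all 10 were found among its 55359 genes. p53 is a transcription factor that is stabilized by DNA damage and other stress, binds its response elements near target genes and raises products that stop the cell cycle, trigger apoptosis, adjust metabolism and switch p53 itself off again. In high-grade neuroendocrine carcinomas of the lung the gene is usually inactivated.

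RNA was sequenced from 5 groups of 3 samples. 46LCNEC_cell were 3 dishes of a line derived from a large cell neuroendocrine carcinoma (LCNEC) of a QKO mouse, which carries floxed alleles that include Rb1 and Trp53 and a null Rbl1, after adenovirus Ad-CMVcre, whose promoter is active in many cell types. 57SCLC_cell were 3 flasks of a line derived from a small cell carcinoma (SCLC) of a QKO mouse after Ad-K5cre, which acts in keratin K5-expressing basal cells. 46LCNEC_allo and 57SCLC_allo were syngeneic tumors grown under the skin of immunocompetent QKO mice from the same lines, so that the stroma of these tumors came from hosts that had received no Cre, and Lung was normal lung of littermates. Their age and whether the littermates carried every allele are not given in the sources used here. Each line stands for 1 tumor, and dishes or flasks of 1 line are not separate tumors, so p-values measure only the spread between these samples.

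Counted reads ranged from 9480244 to 44876572 per sample. The values below are normalized counts, that is reads per gene divided by the sample's size factor, and they are given in the order A, B, C for the cells, 312, 319, 321 for the 46LCNEC tumors, 275, 316, 317 for the 57SCLC tumors and CT3, CT4, CT5 for Lung. Chga, Syp, Insm1, Calca and Dll3, markers of neuroendocrine cells, were at 18.5 normalized counts or less in every 46LCNEC sample, whereas Ncam1 was at 3058 to 31510. These markers and Ncam1 were at 493 or more in every 57SCLC sample. The lung epithelium markers summed to 369187 to 485740 in Lung and to 134 to 552 in the other groups, so the comparisons with Lung also compare cell types, and in such bulk samples fewer cells of a type and less RNA per cell cannot be told apart.

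p53 binds a pair of 10-base decamers, each with the core CNNG between purines and pyrimidines. The search took A or T as the middle bases of the core, a spacer of 0 to 13 bases and at most 1 mismatch per pair. The mismatch could lie anywhere but at the C or G of a core. Within 5 kb of the annotated gene start in GRCm39, 6 of the 10 genes held such a pair on either strand, beside 27.8% of 21765 protein-coding genes. A pair with 0 mismatches was found at 3 of the 10 genes, Cdkn1a, Zmat3 and Trp53inp1, beside 3.03% of all. Below, 1 pair each of 4 genes whose levels are described further on is printed, on the forward strand of the chromosome, with the 4 core bases of each decamer in capitals. They are matches to the pattern searched for, and a match is a description of the letters, not a proof of binding.
Cdkn1a: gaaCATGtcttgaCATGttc
Zmat3: agaCATGcctgggCTTGttt
Trp53inp1: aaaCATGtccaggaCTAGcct
Ccng1: agaCTAGcccgggCTTGcgt
The Cdkn1a pair lies at chr17:29309902-29309921, at -24 bases from the gene start (negative: upstream), has 1 mismatch and overlaps a pair with 0 mismatches and a spacer of 12 bases. The Zmat3 pair at chr3:32418480-32418499 touches an annotated exon 1674 bases into the gene, and the Trp53inp1 pair at chr4:11155112-11155132 lies at -1290 bases; both have 0 mismatches. The Ccng1 pair at chr11:40645763-40645782 lies in an intron, 376 bases after the start, with 1 mismatch. Mdm2, Sesn2, Eda2r and Bbc3 held no such pair in this window, which says only that these letters are not there.

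Trp53 (ENSMUSG00000059552, chromosome 11, 69469669 to 69482701), the deleted gene, was read first. It had 1435, 1414 and 1548 normalized counts in 46LCNEC_cell and 968, 1050 and 1242 in 46LCNEC_allo. It had 1062, 1006 and 923 in 57SCLC_cell, 1183, 1176 and 1016 in 57SCLC_allo, and 1536, 1356 and 1250 in Lung. The levels of the tumor groups thus lay within 2-fold of Lung, and Trp53 was not called in any of the 8 comparisons between groups. 57SCLC_cell lay below Lung with no overlap, by a log2 difference of -0.47 ± 0.10 (SE, limma, adjusted p = 0.00328). It lay below 46LCNEC_cell by a log2 difference of -0.56 ± 0.08 (adjusted p = 0.000403), also under 2-fold. These counts are per gene over all exons, so they show neither the recombination, which the study read by PCR of genomic DNA, nor whether a functional transcript was left. Wrap53 and Gm57392 on the opposite strand cover 5.68% of the Trp53 exons. The strand setting of the counting is not given in the sources used here, so their reads could be included.

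**Figure D1:**
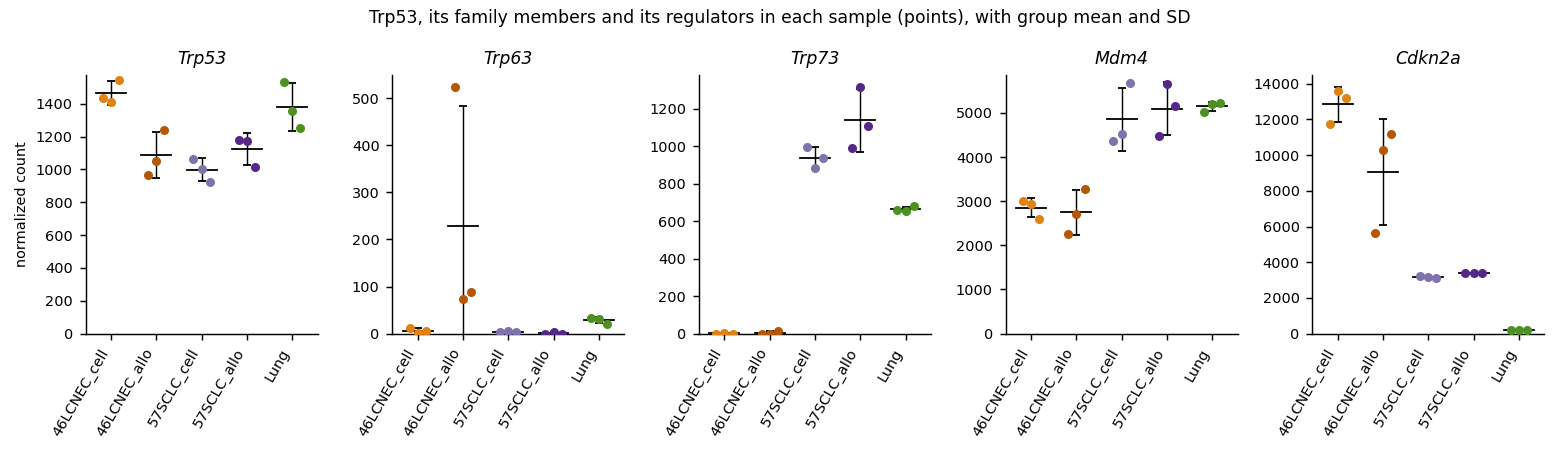
Normalized counts (vertical axes, linear from 0) of Trp53, its relatives Trp63 and Trp73 and its regulators Mdm4 and Cdkn2a in the 3 samples of each group (points), with the group mean (bar) and SD (whiskers). Trp53 differed little between groups, Trp73 was near 0 in both 46LCNEC groups, and Cdkn2a was at 215 or less in Lung and at 3100 or more in every tumor sample.

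Trp63 and Trp73 encode relatives of p53 that bind the same element. Trp73 was at 882 to 994 normalized counts in 57SCLC_cell, 989 to 1317 in 57SCLC_allo and 654 to 679 in Lung, against 0, 3.31 and 0 in 46LCNEC_cell and 0, 0 and 12.2 in 46LCNEC_allo. At 0 to 3 reads in the 46LCNEC cells, it was at least 333-fold lower there than in the 57SCLC cells, counting 3 reads per library as the limit of detection. Trp63 was at 523, 73.7 and 87.4 in the 46LCNEC tumors and at 33.6 or less in every other sample. Cdkn2a, whose Arf product holds Mdm2 in check, rose in all 4 comparisons with Lung, from a log2 difference of 3.99 ± 0.09 (SE, adjusted p = 1.59e-08) in 57SCLC_cell to 6.01 ± 0.09 (adjusted p = 1.38e-10) in 46LCNEC_cell. Mdm4, an inhibitor of p53, differed from Lung by -0.85 ± 0.07 on the log2 scale (adjusted p = 4.41e-06) in 46LCNEC_cell, which is under the 2-fold limit. It differed by -0.93 ± 0.14 (adjusted p = 0.00165) in 46LCNEC_allo, also under that limit, by -0.09 in 57SCLC_cell and by -0.02 in 57SCLC_allo.

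A gene was called where the adjusted p of limma was at most 0.01 and the change at least 2-fold. In 46LCNEC_cell over Lung, 1 of 10 rose (Phlda3) and 5 fell (Eda2r, Trp53inp1, Pmaip1, Bbc3 and Ccng1), beside 20.6% and 35% of all genes tested. In 46LCNEC_allo over Lung, 1 rose (Phlda3) and 2 fell (Trp53inp1 and Bbc3), beside 13.4% and 22.1%. In 57SCLC_cell over Lung, 1 rose (Cdkn1a) and 4 fell (Pmaip1, Phlda3, Eda2r and Ccng1), beside 21.1% and 32.7%. In 57SCLC_allo over Lung, 1 rose (Cdkn1a) and 5 fell (Pmaip1, Ccng1, Phlda3, Eda2r and Trp53inp1), beside 18.9% and 26.9%. The median log2 difference of the 10 genes was -0.86, -0.73, -0.53 and -0.68 in this order of comparisons, beside -0.23, -0.14, -0.12 and -0.09 over all genes tested. These comparisons share the Lung samples. No gene of the 10 was called lower in all 4, beside 13.5% of the genes tested in all 4. Every tumor and cell sample was below every Lung sample for Pmaip1, Ccng1 and Trp53inp1. The share of all genes that lay below Lung in this way was not counted. Pmaip1 missed the threshold in 46LCNEC_allo alone (limma, adjusted p = 0.0115), where DESeq2 called it lower (adjusted p = 0.000275), as did limma with a pseudocount of 5 and with all 15 samples in the model, while edgeR did not call it. Sesn2, Zmat3 and Mdm2 were called in none of the 4.

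**Figure D2:**
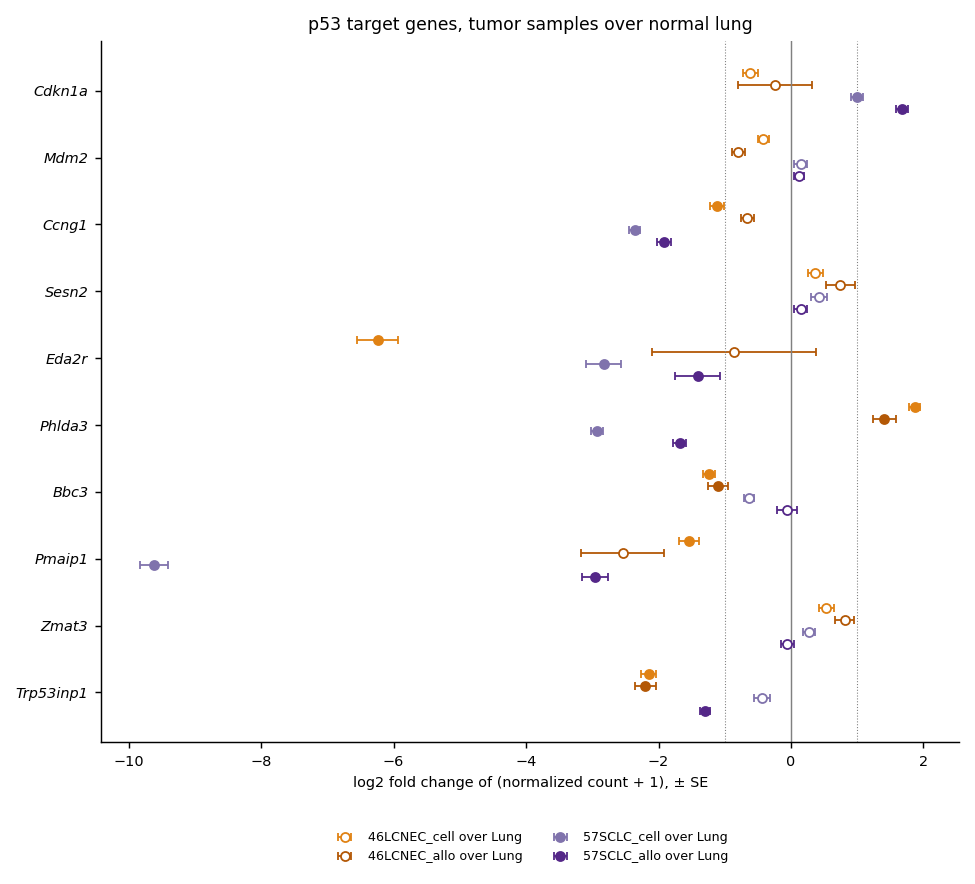
Log2 fold change of (normalized count + 1) over Lung (horizontal axis) for the 10 p53 target genes in the 4 tumor groups, with SE. Filled points were called and open points were not, and dotted lines mark a 2-fold change. Phlda3 lies right of 0 in both 46LCNEC groups and left of 0 in both 57SCLC groups.

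Between the lines, 57SCLC_cell over 46LCNEC_cell had 2 of the 9 genes tested higher (Trp53inp1 and Cdkn1a) and 3 lower (Pmaip1, Phlda3 and Ccng1), beside 23.9% and 22.2% of all genes. Eda2r was too low in both cell groups to be tested. 57SCLC_allo over 46LCNEC_allo had 1 of 10 higher (Bbc3) and 2 lower (Phlda3 and Ccng1), beside 16.1% and 14.2%. Over all genes this was 2821 higher and 2491 lower, and 3576 and 1964 when samples were scaled to library size instead; then Mdm2 (log2 difference 1.18) and Trp53inp1 (1.16) were also called and Ccng1 (-0.99) was not. From culture to allograft, 0 of 9 genes were called in the 46LCNEC line, beside 14.4% called higher and 8.45% called lower, and 3 of 10 were called in the 57SCLC line, all of them higher (Pmaip1, Eda2r and Phlda3), beside 14.4% higher and 2.29% lower. The count of 0 in the 46LCNEC line came to 1 gene, Eda2r, with no filter on low values, with all 15 samples in the model and without tumor 319. At an unadjusted p under 0.05, the 46LCNEC line had 3 of the 9 genes, and edgeR and DESeq2 also called 0. The median of the genes tested was 0.06 between the cells, -0.48 between the allografts, 0.14 from culture to allograft in the 46LCNEC line and 0.51 in the 57SCLC line, beside 0.0146 or less in size over all genes tested.

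**Figure D3:**
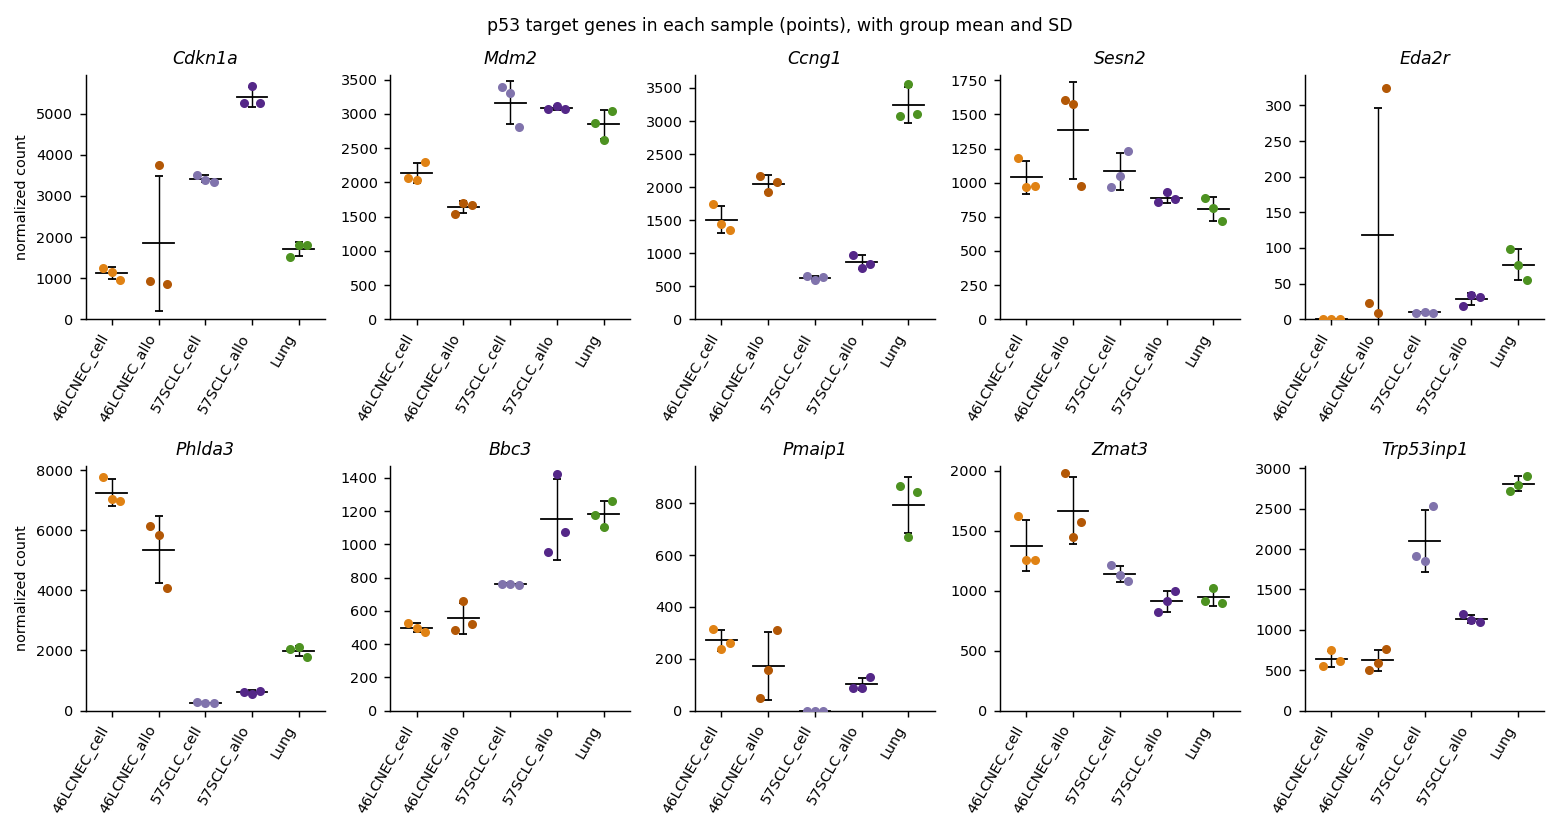
Normalized counts (vertical axes, linear from 0, a scale of its own for each gene) of the 10 p53 target genes in the 3 samples of each group (points), with the group mean (bar) and SD (whiskers). Phlda3 and Cdkn1a order the lines in opposite ways, Pmaip1 is at 0 in the 57SCLC cells, Eda2r is at 0 in the 46LCNEC cells, and single 46LCNEC tumors stand apart for Cdkn1a and Eda2r.

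Cdkn1a (ENSMUSG00000023067, chromosome 17, 29309936 to 29319701) encodes p21, the inhibitor of cyclin-dependent kinases through which p53 stops the cell cycle. It had 3509, 3402 and 3340 normalized counts in 57SCLC_cell and 5254, 5682 and 5276 in 57SCLC_allo, against 1511, 1796 and 1817 in Lung. Every sample of the 57SCLC line was therefore above every Lung sample. Cdkn1a had 1238, 1154 and 956 in 46LCNEC_cell and 936, 3753 and 848 in 46LCNEC_allo. The 46LCNEC cells lay below Lung, and in the allografts of that line tumor 319 had 4.42 times the level of tumor 321.

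In the test, Cdkn1a rose over Lung by 1.67 ± 0.09 (log2, SE, adjusted p = 1.58e-06) in 57SCLC_allo and by 1.00 ± 0.09 (adjusted p = 1.9e-05) in 57SCLC_cell. The second change stood at the 2-fold limit, and it fell under it without flask A (0.98) or without lung CT3 (0.92). The 57SCLC cells exceeded the 46LCNEC cells by 1.62 ± 0.10 (adjusted p = 2.27e-06). The allografts of the lines differed by 1.91 ± 0.54 (adjusted p = 0.022), which is not called, and by 2.60 (adjusted p = 2.83e-05) without tumor 319. In that tumor Gadd45a, a growth arrest gene, was at 1577 against 502 and 544 in the others. Hipk2, a kinase of p53, was at 9680 against 1596 and 1696. Both were picked after their values were seen, and the p53 target genes did not all go with them. Ccng1 (1919), Zmat3 (1450) and Eda2r (8.42) were lowest in tumor 319 among the 46LCNEC tumors. Bbc3 (662 against 483 and 519) and Mdm2 (1701 against 1539 and 1669) were, like Cdkn1a, highest there. Sesn2, Phlda3, Pmaip1 and Trp53inp1 lay between the other tumors. An antisense transcript and a second gene on the opposite strand cover 12.5% of the Cdkn1a exons, and the strand setting of the counting is not given in the sources used here, so their reads could be included.

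Mdm2 (ENSMUSG00000020184, chromosome 10, 117524780 to 117546730), Ccng1 (ENSMUSG00000020326, chromosome 11, 40639377 to 40646148) and Trp53inp1 (ENSMUSG00000028211, chromosome 4, 11156412 to 11175230) act on p53 itself. Mdm2 is the ubiquitin ligase that marks p53 for degradation, cyclin G1 from Ccng1 brings a phosphatase to Mdm2, and Trp53inp1 promotes the phosphorylation of p53. The 3 genes differed in their order of groups. Mdm2 had 3386, 3299 and 2802 normalized counts in 57SCLC_cell, 3064, 3117 and 3070 in 57SCLC_allo and 2872, 2623 and 3039 in Lung. It had 2063, 2035 and 2296 in 46LCNEC_cell and 1539, 1701 and 1669 in 46LCNEC_allo. Mdm2 thus stayed within 2-fold of Lung in every group. Its largest difference from Lung was -0.80 ± 0.10 (log2, adjusted p = 0.000523) in 46LCNEC_allo, and the 57SCLC tumors were above the 46LCNEC tumors by 0.92 ± 0.09 (adjusted p = 0.000183) with no overlap of the samples.

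Ccng1 had 3080, 3555 and 3101 normalized counts in Lung, more than in any other sample. It had 1740, 1436 and 1352 in 46LCNEC_cell, 2168, 1919 and 2070 in 46LCNEC_allo, 656, 596 and 635 in 57SCLC_cell, and 977, 770 and 840 in 57SCLC_allo. All 5 groups were apart from their neighbors in this order with no overlap. Ccng1 fell below Lung in 57SCLC_cell (log2 -2.36 ± 0.09, adjusted p = 1.33e-07) and in 57SCLC_allo (log2 -1.92 ± 0.11, adjusted p = 1.92e-06). It also fell in 46LCNEC_cell (log2 -1.11 ± 0.11, adjusted p = 8.71e-06), where edgeR gave -0.975 and no call. The difference in 46LCNEC_allo (log2 -0.66 ± 0.10, adjusted p = 0.00144) was under the 2-fold limit. The 57SCLC cells differed from the 46LCNEC cells by -1.25 ± 0.11 (adjusted p = 1.54e-05), and the tumors of the lines by -1.26 ± 0.12 (adjusted p = 0.000205).

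Trp53inp1 had 2723, 2800 and 2910 normalized counts in Lung and 1909, 1857 and 2538 in 57SCLC_cell. It had 1195, 1125 and 1094 in 57SCLC_allo, 554, 746 and 612 in 46LCNEC_cell and 506, 586 and 768 in 46LCNEC_allo. The 46LCNEC groups were thus the lowest. They were below Lung by a log2 difference of -2.15 ± 0.11 (adjusted p = 1.12e-07) in cells and -2.20 ± 0.16 (adjusted p = 6.56e-05) in allografts. The 57SCLC tumors were below Lung by a log2 difference of -1.30 ± 0.07 (adjusted p = 1.52e-06), whereas the 57SCLC cells differed from Lung by -0.43 ± 0.12 (adjusted p = 0.0127). The 57SCLC cells exceeded the 46LCNEC cells by 1.72 ± 0.15 (adjusted p = 1.87e-05).

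Sesn2 (ENSMUSG00000028893, chromosome 4, 132219335 to 132237815) encodes Sestrin 2, which restrains mTORC1 under stress, and Zmat3 (ENSMUSG00000027663, chromosome 3, 32388941 to 32420163) a zinc finger protein that binds RNA. These were the genes of the 10 with the least difference between groups beside Mdm2. Sesn2 ranged from 720 to 892 normalized counts in Lung, from 967 to 1179 in 46LCNEC_cell, from 975 to 1604 in 46LCNEC_allo, from 968 to 1232 in 57SCLC_cell and from 859 to 931 in 57SCLC_allo. By their means the groups ran from 46LCNEC_allo through 57SCLC_cell, 46LCNEC_cell and 57SCLC_allo down to Lung, and no neighbors in that order differed beyond their spread in the test, with adjusted p from 0.0752 to 0.675. 46LCNEC_cell lay above Lung with no overlap, by 0.36 ± 0.11 (log2, limma, adjusted p = 0.0141). So did 46LCNEC_allo, by 0.746 ± 0.215 (adjusted p = 0.0214), and 57SCLC_cell, by 0.42 ± 0.12 (adjusted p = 0.0132). All of these are under the 2-fold limit and over the limit of 0.01. Zmat3 ranged from 897 to 1024 in Lung, from 1252 to 1623 in 46LCNEC_cell, from 1450 to 1984 in 46LCNEC_allo, from 1077 to 1212 in 57SCLC_cell and from 823 to 995 in 57SCLC_allo. Both 46LCNEC groups lay above Lung with no overlap, by 0.53 ± 0.12 (log2, limma, adjusted p = 0.00198) in cells and 0.81 ± 0.14 (adjusted p = 0.00273) in allografts. 57SCLC_cell also lay above Lung with no overlap, by 0.27 ± 0.09 (adjusted p = 0.0214). All of these are under the 2-fold limit.

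Phlda3 (ENSMUSG00000041801, chromosome 1, 135693809 to 135697686) encodes a small pleckstrin homology protein that competes with Akt for membrane lipids and so lowers Akt signaling. It had 7771, 7027 and 6974 normalized counts in 46LCNEC_cell and 6135, 5860 and 4087 in 46LCNEC_allo. It had 269, 250 and 259 in 57SCLC_cell, 620, 566 and 666 in 57SCLC_allo and 2047, 2114 and 1798 in Lung. The groups did not overlap, with Lung between the lines. Phlda3 rose over Lung by 1.87 ± 0.08 (log2, adjusted p = 5.03e-08) in 46LCNEC_cell and by 1.41 ± 0.17 (adjusted p = 0.000552) in 46LCNEC_allo. It fell in 57SCLC_cell (log2 -2.93 ± 0.09, adjusted p = 7.09e-08) and in 57SCLC_allo (log2 -1.68 ± 0.10, adjusted p = 2.31e-06).

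Phlda3 therefore had the largest difference between the lines among the genes detected in both. The 57SCLC cells were 27.9-fold lower than the 46LCNEC cells (log2 -4.80 ± 0.08, adjusted p = 3.88e-09), and the tumors 8.55-fold (log2 -3.10 ± 0.17, adjusted p = 2.44e-05). Per kb of exon, Phlda3 was the highest of the 10 genes in 46LCNEC_cell, at 2804 normalized counts per kb, in 46LCNEC_allo, at 2071, and in Lung, at 768. In the 57SCLC groups Cdkn1a was the highest, at 565 per kb in cells and 894 in allografts, where Phlda3 was at 100.2 and 239. From culture to allograft Phlda3 rose by 1.25 ± 0.11 (log2, adjusted p = 5.17e-05) in the 57SCLC line and changed by -0.46 ± 0.17 (adjusted p = 0.0507) in the 46LCNEC line.

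Eda2r, Bbc3 and Pmaip1 lead toward cell death. Bbc3 (ENSMUSG00000002083, chromosome 7, 16042318 to 16052130) encodes Puma and Pmaip1 (ENSMUSG00000024521, chromosome 18, 66591604 to 66598636) encodes Noxa, BH3-only proteins that bind the protectors of the Bcl-2 family. Eda2r (ENSMUSG00000034457, chromosome X, 96320270 to 96420847) encodes a receptor of the tumor necrosis factor receptor family. Bbc3 had 526, 499 and 472 normalized counts in 46LCNEC_cell, 483, 662 and 519 in 46LCNEC_allo and 763, 762 and 753 in 57SCLC_cell. It had 953, 1424 and 1074 in 57SCLC_allo and 1177, 1103 and 1262 in Lung. Bbc3 was thus lowest in the 46LCNEC line, by a log2 difference from Lung of -1.24 ± 0.09 (adjusted p = 1.15e-06) in cells and -1.10 ± 0.15 (adjusted p = 0.00083) in allografts. The 57SCLC tumors overlapped with Lung and exceeded the 46LCNEC tumors by 1.04 ± 0.20 (adjusted p = 0.00391), a call that was lost without tumor 312, 321, 316 or 317, when the difference was 0.88 to 1.08.

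Pmaip1 had 865, 669 and 843 normalized counts in Lung and 315, 236 and 262 in 46LCNEC_cell. It had 49.0, 157 and 312 in 46LCNEC_allo, 88.6, 87.8 and 129 in 57SCLC_allo, and 0, 0 and 0 in 57SCLC_cell. It was not detected in the deepest libraries of the series, since the 57SCLC cells had 37368046 to 44876572 counted reads. With 3 reads per library as the limit, Pmaip1 was at least 475-fold lower there than in Lung, at least 162-fold lower than in the 46LCNEC cells and at least 61-fold lower than in the 57SCLC allografts, which covers counting error only. Pmaip1 fell below Lung in 46LCNEC_cell (log2 -1.54 ± 0.14, adjusted p = 7.5e-06) and in 57SCLC_allo (log2 -2.96 ± 0.20, adjusted p = 4.48e-06). In 46LCNEC_allo the difference was -2.54 ± 0.62 (adjusted p = 0.0115), and it was called without tumor 312 (-1.83) or 321 (-3.15) and by DESeq2 (-2.16).

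Eda2r was the least expressed of the 10 genes per kb of exon in Lung, where it had 97.9, 76.8 and 55.0 normalized counts. It had 0, 0 and 0 in 46LCNEC_cell, 22.5, 8.42 and 324 in 46LCNEC_allo, 9.27, 10.9 and 8.86 in 57SCLC_cell, and 19.2, 34.0 and 31.8 in 57SCLC_allo. The 46LCNEC cells were at least 27.2-fold lower than Lung, and 1 tumor of that line, 321, was above every other sample of the series. Tumor 321 also had the highest leukocyte marker sum, 16046 against 8288 and 11091, with Cd3e at 150 where tumors 312 and 319 had 3.97 or less; the part of these cells in the Eda2r level was not tested. Eda2r fell below Lung in 57SCLC_cell (log2 -2.83 ± 0.27, adjusted p = 2.76e-05) and in 57SCLC_allo (log2 -1.41 ± 0.34, adjusted p = 0.00588). The second call was lost without tumor 275 or 317 or without lung CT3 or CT4, with adjusted p from 0.0131 to 0.0275. In 46LCNEC_allo the difference from Lung was -0.86 ± 1.24 (adjusted p = 0.566), and -2.34 (adjusted p = 0.00799) without tumor 321.

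Of the 3 genes that rose from 57SCLC_cell to 57SCLC_allo, Pmaip1 went from 0 reads to 37 to 114 reads, and Phlda3 rose 2.37-fold. Eda2r rose by 1.42 ± 0.32 (log2, adjusted p = 0.00824), which was lost without flask A, B or C and without tumor 316 or 317, with adjusted p from 0.0227 to 0.0405. Trp53inp1 went the other way, by a log2 difference of -0.87 ± 0.13 (adjusted p = 0.000885), under the 2-fold limit. In the same step the endothelial marker sum went from 63.3 to 89.1 up to 2809 to 3955, the leukocyte sum from 235 to 260 up to 2973 to 4989 and the fibroblast sum from 24.0 to 31.1 up to 32249 to 50894. In the 57SCLC cells Cdh5, Cldn5, Emcn and Kdr of the 6 endothelial markers, Ptprc, Adgre1 and Cd3e among the leukocyte markers and Dcn and Lum of the 6 fibroblast markers were at 3 reads or less. Markers of host cells, which had received no Cre, were thus higher in the same samples as these genes, and their part in the result was not tested. In the 46LCNEC line the endothelial and leukocyte sums were higher in the allografts as well, from 371 to 455 up to 5923 to 9950 and from 331 to 383 up to 8288 to 16046, and the fibroblast sum from 73984 to 84202 up to 309554 to 688074. The cultured 46LCNEC cells were already above Lung in the fibroblast sum, which was 23513 to 27820 there, so in this line it does not mark host cells alone.

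Whether the step from culture to allograft differed between the lines was tested as an interaction over 12 samples. It was called for 2 of 10 genes, Pmaip1 and Phlda3, both of them higher, beside 10.8% called higher and 6.78% called lower of all genes tested. For Phlda3 the steps differed by 1.70 ± 0.20 (log2, adjusted p = 4.31e-05). For Pmaip1 the fitted difference of 7.66 ± 0.72 (adjusted p = 9.07e-06) rests on the 0 reads of the 57SCLC cells and is no estimate of size. Eda2r, at 0 reads in the 46LCNEC cells, differed the other way by -3.96 ± 1.34 (adjusted p = 0.0362). It was not called by limma, but it was called lower by DESeq2 (-7.91, adjusted p = 0.000178), with a pseudocount of 0.1 (-7.13, adjusted p = 0.00299), without tumor 319 (-5.03, adjusted p = 0.00422) and without tumor 321 (-2.47, adjusted p = 0.00672). The remaining genes were not called by limma, with Trp53inp1 (-0.82 ± 0.24, adjusted p = 0.0189) and Zmat3 (-0.60 ± 0.20, adjusted p = 0.0308) nearest after Pmaip1 and Phlda3.

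**Figure D4:**
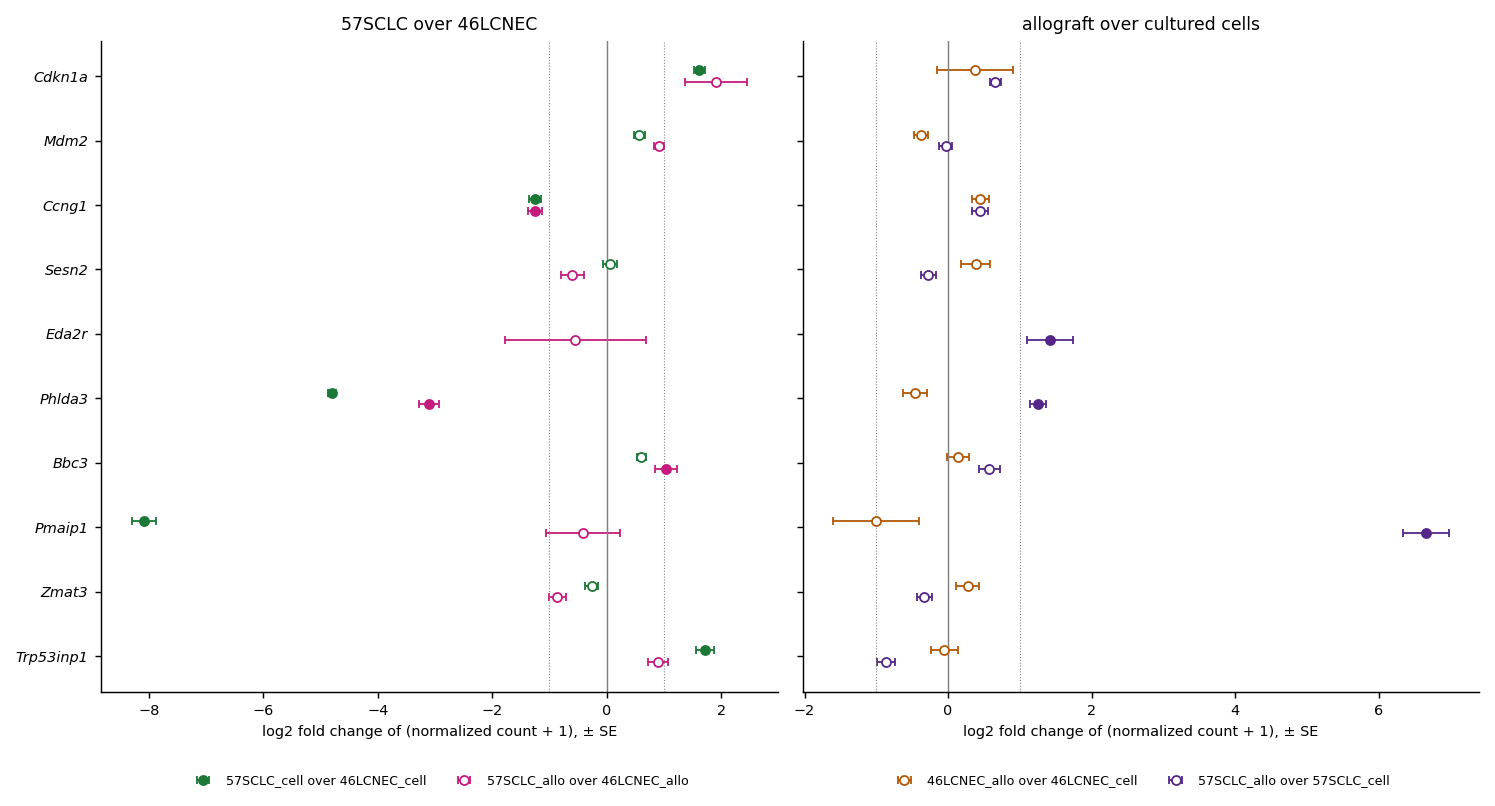
Log2 fold change of (normalized count + 1), with SE, of the 10 p53 target genes between the lines (left, cells and allografts) and from cultured cells to allografts (right, both lines). Filled points were called and open points were not, dotted lines mark a 2-fold change, and no point is drawn for Eda2r where it was not tested. Pmaip1 lies farthest from 0 in the 2 comparisons that include 57SCLC_cell, where it had 0 reads, and Phlda3 does so between the allografts of the lines.

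A wider list of 40 other p53 targets was read beside the 10 genes. In comparison with Lung, 8 were higher and 12 lower in 46LCNEC_cell, 5 and 9 in 46LCNEC_allo, 4 and 17 in 57SCLC_cell, and 4 and 14 in 57SCLC_allo. As shares of the list these lie near the shares of all genes given above in the 46LCNEC groups. For the 57SCLC groups, all genes had 21.1% higher and 32.7% lower in cells and 18.9% and 26.9% in allografts. Between the lines, 6 were higher and 16 lower of 39 tested in 57SCLC_cell over 46LCNEC_cell, beside 23.9% and 22.2% of all genes. The allografts, 57SCLC_allo over 46LCNEC_allo, had 4 higher and 11 lower of 40, beside 16.1% and 14.2%. From culture to allograft 6 rose and 2 fell in the 46LCNEC line, beside 14.4% and 8.45%. The 57SCLC line had 13 that rose and 1 that fell, beside 14.4% and 2.29%. The interaction was called higher for 11 and lower for 2, beside 10.8% and 6.78%. The median of the list was -0.20, 0.04, -0.83 and -0.63 in the comparisons with Lung, -0.12 between the cells, -0.29 between the allografts, -0.08 and 0.28 from culture to allograft in the 46LCNEC and 57SCLC lines, and 0.21 for the interaction, where all genes had 0.10.

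**Figure D5:**
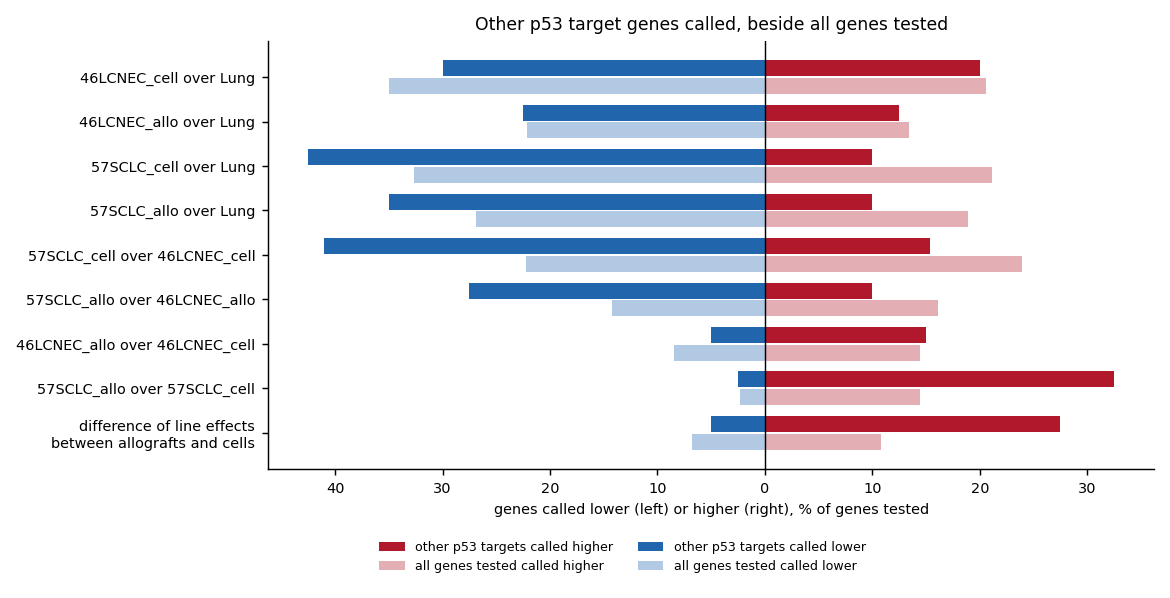
Share of the other p53 targets tested (39 or 40, full color) and of all genes tested (pale) that were called higher (right, red) or lower (left, blue) in each of the 9 comparisons. The shares of the list and of all genes are alike in 46LCNEC_allo over Lung, and the list has more genes lower in 57SCLC_cell over 46LCNEC_cell and more genes higher in 57SCLC_allo over 57SCLC_cell.

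Of these 40 genes, 4 were called lower and 2 higher in all 4 comparisons with Lung, beside 13.5% called lower and 5.41% called higher in each of the 4 among all genes tested in them. Fas, a death receptor, Xpc, which recognizes DNA damage for repair, Dram1, which promotes autophagy, and Kank3 were lower. Pidd1, which activates caspase-2, and Ddit4, an inhibitor of mTORC1, were higher. Fas had 1402 to 1495 normalized counts in Lung, 101 to 161 in 46LCNEC_cell, 238 to 250 in 46LCNEC_allo, 29.7 to 42.0 in 57SCLC_allo and 0, 0 and 0 in 57SCLC_cell, at least 860-fold below Lung. Dram1 was at 13658 ± 1782 (SD, n = 3) in Lung and at 58.8 ± 6.21 in 57SCLC_cell. Xpc was alike in the 4 tumor groups, with means of 514 to 553 against 1464 ± 84.9 in Lung. Kank3 had 4166 ± 506 in Lung and means of 137 to 437 in the tumor groups. Pidd1 was at 123 to 147 in Lung, 533 to 634 in 46LCNEC_cell and 1650 to 2078 in 57SCLC_cell. Ddit4 was at 1016 ± 141 in Lung, 3897 ± 972 in 46LCNEC_cell and 8509 ± 2007 in 57SCLC_cell.

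Among the largest differences between the lines in this list were genes higher in 46LCNEC. The receptor kinase Epha2 was at 9464 ± 391 in 46LCNEC_cell and 22.8 ± 6.03 in 57SCLC_cell (log2 -8.67 ± 0.19). Fas was at 136 ± 30.7 in 46LCNEC_cell and at 0 reads in 57SCLC_cell, at least 81.2-fold lower. In the allografts the largest were the phosphatase genes Ptprv and Ptpn14, and Epha2. Ptprv had 2108 ± 1026 in 46LCNEC_allo and 50.4 ± 6.50 in 57SCLC_allo (log2 -5.26 ± 0.33). Between the cell groups Ptprv was too low to be tested, and it rose from culture to allograft in both lines. Its log2 difference in that step was 7.28 ± 0.39 in the 46LCNEC line and 4.67 ± 0.47 in the 57SCLC line. The part of host cells in the Ptprv level was not tested. Ptpn14 had 6948 ± 2031 in 46LCNEC_allo and 341 ± 142 in 57SCLC_allo (log2 -4.39 ± 0.35), and Epha2 differed by a log2 difference of -3.81 ± 0.25.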

How the data were processed

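Poly-A RNA of 15 samples was sequenced as paired reads. Per the study's methods, the authors aligned to GRCm39 with Rbowtie2 and counted with featureCounts (GENCODE M27). The deposited matrix is described as DESeq2-normalized counts, that is counts divided by size factors, a signal and not raw counts. Strand and multi-mapping settings are not given in the sources used here. Reads were recovered from each sample's step (100% of non-zero values whole within 0.1 read). Detection limits (3 reads per library) cover counting error only.

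limma 3.58.1 (R 4.3.3, mean-variance trend) was fitted to log2(normalized count + 1), which understates changes of low genes, in the 6 samples compared. Genes needed 10 normalized counts or more in 3 samples, p was adjusted over all genes (Benjamini-Hochberg), and calls required 0.01 or less with a 2-fold change. Alternatives were edgeR 4.0.16 (TMM) and DESeq2 1.42.0 on recovered reads, pseudocounts of 0.1 and 5, no filter, library size scaling, all 15 samples together, a test against 2-fold, a replicate block and single samples left out (filter of 2 samples, chosen after seeing the data). Between the cells edgeR called 4118 genes higher and 3682 lower, limma 4043 and 3756. Procedures were tested on simulated data.

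Members and lists were chosen with earlier results of these data known. Named were the 10 genes, Trp53, Trp63, Trp73, Mdm4, Cdkn2a, other targets called alike in all 4 comparisons with Lung, and the 3 with the largest change between the lines; Gadd45a and Hipk2 were named after their values were seen. Some genes that the rule names are not reported here. Positions are from GENCODE vM39 (98.9% of identifiers), and decamers were searched in GRCm39.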

Additional observations from a re-analysis of the deposited data

Results flagged for a closer look

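The change from cultured cells to allografts differed between the lines for Phlda3 and Pmaip1 in the interaction test of limma over 12 samples. For Phlda3 the change in the 57SCLC line exceeded that in the 46LCNEC line by 1.70 on the log2 scale (SE 0.20, adjusted p = 4.31e-05): it was higher in 3 of 3 57SCLC tumors than in every flask and lower in 3 of 3 46LCNEC tumors than in every dish. When single samples were left out, the difference was 1.52 to 1.81 and was called each time; a test against a fold change of 2 gave an adjusted p of 0.023. For Pmaip1 the fitted difference was 7.66 (SE 0.72, adjusted p = 9.07e-06), and 5.36 with a pseudocount of 5, 11 with a pseudocount of 0.1 and 10.5 by edgeR, since the 57SCLC cells had 0 reads.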

How the results depend on the processing

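The count of genes called among the 10 stayed within 1.5 times under the alternatives not named here. A test against a fold change of 2 left 1 in 46LCNEC_allo over Lung, 1 in 57SCLC_allo over 46LCNEC_allo, 1 in 57SCLC_allo over 57SCLC_cell and 1 in the difference of line effects, since it asks more of each gene. No filter and all 15 samples each gave 1, Eda2r, in 46LCNEC_allo over 46LCNEC_cell. With each sample left out the counts were, in the order of 46LCNEC_cell, 46LCNEC_allo, 57SCLC_cell and 57SCLC_allo over Lung, 6 to 6, 3 to 5 (5 without tumor 321, with Eda2r and Pmaip1 added), 4 to 5 and 5 to 6; between the lines 5 to 5 in cells and 2 to 4 in allografts; from culture to allograft 0 to 1 in the 46LCNEC line and 2 to 3 in the 57SCLC line; and 2 to 3 for the interaction. The letters A, B and C do not pair dishes and flasks (correlations of deviations 0.0916, -0.0837 and -0.00619), and the replicate block left 5 genes called between the cells. Single genes kept direction and side of the threshold in 1212 of 1301 refits.

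Reversals were of differences that were not called. Cdkn1a in 46LCNEC_allo over Lung was 0.197 by edgeR and 0.182 by DESeq2, Eda2r there 0.687 and 0.647, and Cdkn1a in the difference of line effects -0.0695 and -0.0962. Bbc3 in 57SCLC_allo over Lung was 0.0458, 0.0193 and, by library size, 0.149, and Zmat3 there 0.0285, 0.00434 and 0.15. Ccng1 in the difference of line effects was 0.0177 by edgeR and 0.0283 by library size. With samples left out, the ranges were -0.932 to 0.14 for Cdkn1a and -2.34 to 0.211 for Eda2r in 46LCNEC_allo over Lung, -0.221 to 0.0686 for Bbc3 and -0.122 to 0.0143 for Zmat3 in 57SCLC_allo over Lung, -0.0385 to 0.151 for Sesn2 between the cells, -1.62 to 0.936 for Eda2r and -1.13 to 0.188 for Pmaip1 between the allografts, -0.316 to 0.756 for Cdkn1a and -0.215 to 0.0854 for Trp53inp1 in 46LCNEC_allo over 46LCNEC_cell, -0.116 to 0.0203 for Mdm2 in 57SCLC_allo over 57SCLC_cell, and -0.0956 to 0.976 for Cdkn1a and -0.109 to 0.0761 for Ccng1 in the difference of line effects. The cause was not tested. Library size scaling moved the median of all genes from -0.12 to 0.12 in 57SCLC_cell and from -0.09 to 0.12 in 57SCLC_allo over Lung, from 0.00 to 0.24 between the cells and from 0.01 to 0.28 between the allografts.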

Other observations

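Neighbors of the genes at 0 reads were read after those values were seen, among protein-coding genes with a mean of at least 10 normalized counts in Lung. Around Fas on chromosome 19 (34168977 to 34522163), 5 genes in a row, Stambpl1, Acta2, Fas, Ch25h and Lipa, had means under 3 in the 57SCLC cells, and 4 of the 5 had 10 or more in the 46LCNEC cells. Lipa encodes the lysosomal acid lipase and had a mean of 1.60 in the 57SCLC cells against 3034 in Lung. The genes on either side of this row, Lipo3 and Ifit2, had means of 222 and 107. Of all such genes 10.8% had a mean under 3 in the 57SCLC cells.

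Next to Pmaip1 on chromosome 18, Ccbe1 at a distance of 156 kb had a mean of 0.557 in the 57SCLC cells and 632 in Lung, while Lman1 (436 kb) and Gnal (623 kb) had 3444 and 79.7.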
